A study of Arabidopsis thaliana with 16 samples.

Results

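The greening step of the *Arabidopsis thaliana* time course ran from 26 h to 57 h in the light, in which a seed whose radicle has just emerged becomes a seedling with expanded green cotyledons. Of the 16 total RNA libraries of the study, 4 carry this step, 2 of seedlings after 57 h of light (L57) and 2 of germinating seeds after 26 h of light (L26), and they were chosen by their labels and not by any measured value. All 4 are wild-type Col-0 without any further treatment, grown after stratification in the cold and dark in shaken flasks of liquid Murashige and Skoog medium under continuous light. The other 12 libraries (dry seeds, 2 stages of stratification, 6 h of light (L6) and the exosome mutants hen2-4 and rrp4-2, with 2 libraries each) entered the fit so that the spread between replicates could be shared. RNA was taken from ground whole material, so that cotyledons, hypocotyl, root and remaining seed tissues are mixed in each library. Whether the replicates of a stage were grown as independent cultures is not given in the labels. The p-values therefore measure the spread between these samples alone, which may be technical.

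Greening joins several programmes that are encoded in the nucleus. Light-harvesting proteins bind chlorophyll and pass excitation energy to the photosystems, electrons run through the thylakoid membrane to ferredoxin, and the Calvin cycle fixes carbon with the ATP and NADPH so made. In the same days the embryo uses up its stored oil through fatty acid oxidation and the glyoxylate cycle, and the root takes over the uptake of water and ions.

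Library totals were 96319042 and 112231212 estimated counts in L57, against 104139249 and 107008158 in L26. Chloroplast transcripts took 41.2% and 43.4% of these in L57, against 10.4% and 11.3% in L26, and were left out of the totals used for scaling, which left 56680034 and 63562621 counts in L57, against 93306908 and 94883248 in L26. The Wilson 95% binomial intervals of the chloroplast shares, which cover counting error only, ran from 41.144% to 41.164% and from 43.355% to 43.374% in L57, against 10.396% to 10.408% and 11.325% to 11.337% in L26. Levels are given below as counts per 1000000 of that total (CPM) after TMM scaling, a correction for differences in RNA composition. A zero could hide up to 3 counts, equal to 0.0452 and 0.0431 CPM in L57, against 0.0258 and 0.0245 CPM in L26, again from counting error only. Replicates lay close together, with a median absolute log2 difference of 0.077 in L57 and 0.0732 in L26 over loci of at least 10 CPM. L57 replicate 2 had a nuclear rRNA share of 2.34% of non-chloroplast counts, against 0.0516% in L57 replicate 1 and 0.37% and 0.0157% in L26. It also stood apart in the chloroplast loci ATCG00920, ATCG00950, ATCG01180 and ATCG01210, which had 2120 to 4050 CPM in L57 replicate 2 and 15 to 29.1 CPM in L57 replicate 1, against 57.9 to 116 CPM in L26 replicate 1 and 2.85 to 5.45 CPM in L26 replicate 2, and which entered no test. The libraries stood in the same order for these loci as for the nuclear rRNA share.

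Of 27810 nuclear loci tested, 9293 (33.4%) were higher and 9030 (32.5%) were lower in L57 than in L26 at an adjusted p under 0.05 (edgeR's quasi-likelihood test with Benjamini-Hochberg adjustment, as for every adjusted p below). At least 2-fold changes made up 6435 loci higher (23.1%) and 4852 loci lower (17.4%). The large changes leaned upwards, with 2203 loci at least 16-fold higher and 557 at least 16-fold lower, while the median log2 fold change over all loci was 0.0. The libraries of the stages did not overlap at 22626 loci (81.4%). With rRNA and mitochondrial counts left out of the total, 9292 loci were higher and 9018 lower. DESeq2 scaling raised the median log2 fold change by 0.105, and counting chloroplast transcripts in the total lowered it by 0.113, so that changes of this size depend on the scaling. In RNA of whole seedlings, fewer cells of a type and less RNA per cell cannot be told apart, which holds for every change below.

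The members of 27 gene lists, set out by function, moved together in some lists and in both directions in others. Lists of photosynthesis lay far to the positive side and those of seed reserves and ribosome production to the negative side, as the plot of list members shows.

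**Figure D1:**
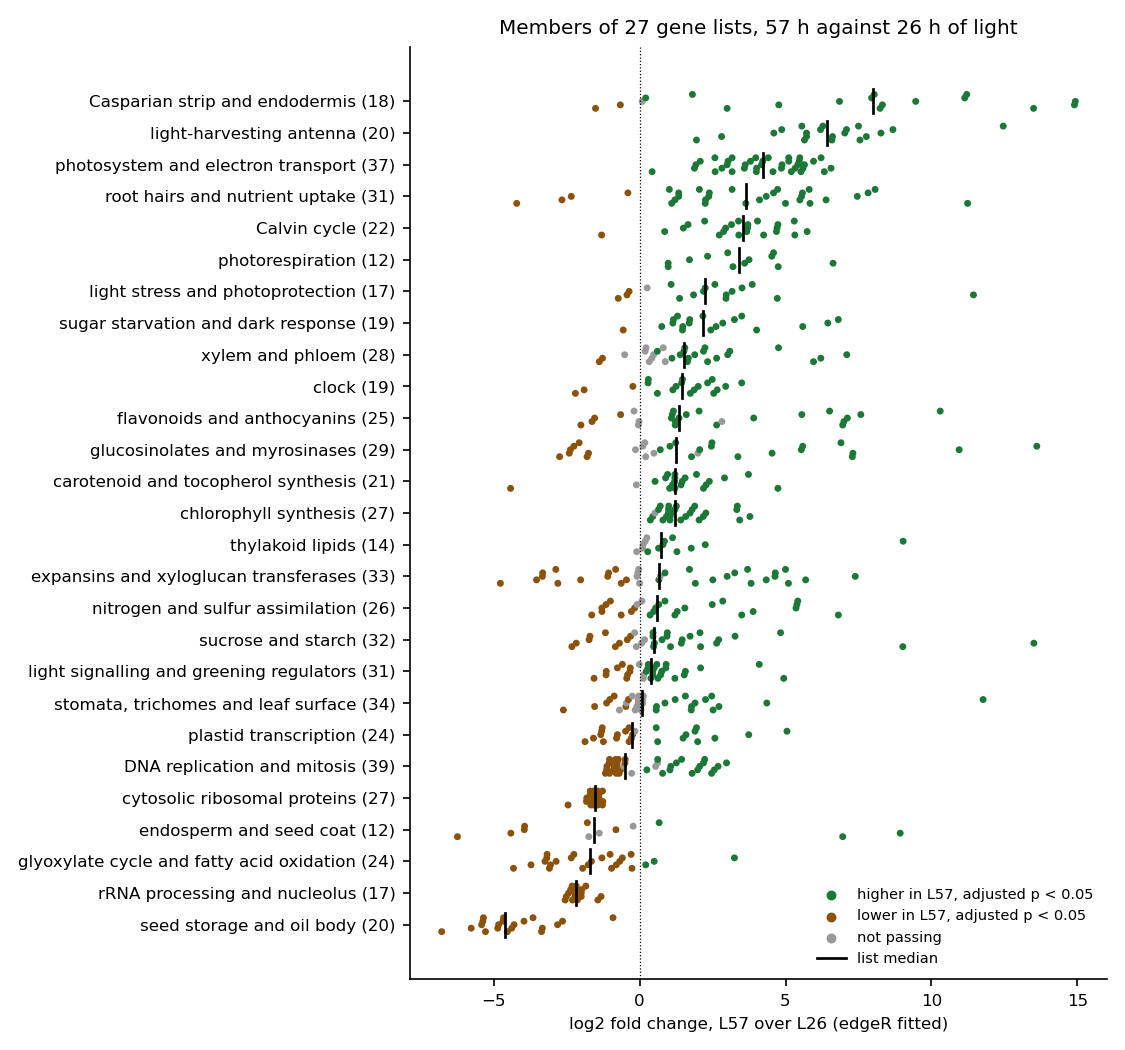
Each point is 1 gene of a list, placed by its log2 fold change of L57 over L26 on the horizontal axis, with list names and the number of genes tested on the vertical axis, green for higher and brown for lower in L57 at an adjusted p under 0.05, grey for not passing, and a black bar at the list median. The antenna list has a median of 6.44 and all its points right of 0, and the seed storage list has a median of -4.60 and all its points left of 0. Points beyond about 9 are mostly genes without a count in L26, whose fitted value depends on the small prior added to each count.

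The light-harvesting antenna rose as a whole. All 20 genes of the list were higher in L57 (background 33.4%), each at least 2-fold, with a median log2 fold change of 6.44 against 0.0 over all loci tested. Their summed level was 52064 and 62160 CPM in L57, against 669 and 677 CPM in L26, an 84.8-fold difference of the means. LHCB1.4 (chromosome 2, 14524607 to 14525918, plus strand), a gene of the major antenna of photosystem II, had 1840 and 2170 CPM in L57, against 0.369 and 0.342 CPM in L26 (log2 fold change 12.46, SE 0.37, adjusted p = 1.27e-11). Its neighbour LHCB1.5, whose coding sequence is close to that of LHCB1.4, stood higher than LHCB1.4 at 26 h, with 5520 and 6810 CPM in L57 against 28.8 and 27.7 CPM in L26 (log2 fold change 7.77, SE 0.31). The LHCB1 and LHCB2 genes are near-identical copies, and multimapped reads were kept at 1 random location, so that the split of reads among them is uncertain, which bears less on their sum.

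LHCB1.3 had the highest level of the list per transcript length at both stages, at 6190 and 6480 TPM (deposited values that correct for transcript length) in L57 and 129 and 127 TPM in L26, and its counts gave 9580 and 11200 CPM in L57 against 109 and 107 CPM in L26 (log2 fold change 6.59, SE 0.25). LHCB1.1 reached 4380 and 5110 CPM in L57, against 12.4 and 10.7 CPM in L26 (log2 fold change 8.68, SE 0.46, adjusted p = 1.82e-09). In both genes the 2 libraries of a stage lay close together and the stages far apart. The photosystem I antenna gene LHCA1 had 2590 and 3100 CPM in L57, against 15.5 and 16 CPM in L26 (log2 fold change 7.5, SE 0.23). The smallest rises belonged to LHCA5, a minor photosystem I antenna gene, with 128 and 140 CPM in L57 against 35.7 and 33.7 CPM in L26 (log2 fold change 1.95), and to LHCB4.3, a minor photosystem II antenna gene, with 67.4 and 69.6 CPM in L57 against 10.6 and 8.9 CPM in L26 (log2 fold change 2.81). With LHCA6 these were also the 3 genes of the list with the lowest TPM at 57 h.

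Promoters of the antenna genes are shown because many of them hold the same short motif. In windows from 250 bases before to 50 bases after the RefSeq gene start (assembly TAIR10.1), CCAATC on either strand, here called the CCAAT-box, occurred in 11 of 20 antenna promoters (55.0%), against 12.6% of the 22826 promoters of protein-coding loci tested. The other motifs searched on both strands were the G-box (CACGTG), the I-box (GATAAG), the telo-box (AAACCCTA) and site II (TGGGCC), and matches of different motifs may overlap. The 250 bases before the start are printed 5′ to 3′ along the gene's strand, with every match to the 5 motifs in capitals.
LHCB2.2 (chr2:1800473-1800722, minus strand): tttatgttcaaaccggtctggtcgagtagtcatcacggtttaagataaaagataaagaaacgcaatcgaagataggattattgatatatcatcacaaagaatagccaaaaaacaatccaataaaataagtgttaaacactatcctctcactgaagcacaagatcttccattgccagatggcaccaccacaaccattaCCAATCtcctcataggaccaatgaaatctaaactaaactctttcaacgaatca
LHCB1.5 (chr2:14523569-14523818, minus strand): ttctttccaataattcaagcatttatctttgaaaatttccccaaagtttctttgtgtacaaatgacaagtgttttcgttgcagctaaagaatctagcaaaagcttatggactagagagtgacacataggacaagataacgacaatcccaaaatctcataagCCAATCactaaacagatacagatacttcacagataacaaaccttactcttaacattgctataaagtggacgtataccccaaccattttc
PSBQ-2 (chr4:2673244-2673493, minus strand): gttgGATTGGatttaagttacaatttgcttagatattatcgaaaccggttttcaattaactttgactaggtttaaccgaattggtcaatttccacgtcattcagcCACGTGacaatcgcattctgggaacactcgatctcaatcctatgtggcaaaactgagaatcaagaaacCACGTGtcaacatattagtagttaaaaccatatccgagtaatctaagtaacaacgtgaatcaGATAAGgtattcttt
In LHCB2.2 the CCAATC starts 53 bases and in LHCB1.5 89 bases upstream of the gene start. PSBQ-2, which encodes a subunit of the oxygen-evolving complex, holds 2 G-boxes, 1 I-box and 1 CCAAT-box on the reverse strand. The windows of LHCB1.1 and LHCB1.4 hold none of the 5 motifs before the start, which says only that these letters are not in this window.

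The photosystems and the electron transport chain followed the antenna. All 37 genes of the list were higher in L57 (background 33.4%), 36 of them at least 2-fold, with a median log2 fold change of 4.22, and their sum was 35185 and 41003 CPM in L57, against 2366 and 2445 CPM in L26. PSAO and PSAK, which encode small subunits of photosystem I, led the list. PSAO had 1200 and 1410 CPM in L57, against 13.4 and 14.3 CPM in L26 (log2 fold change 6.56, SE 0.21, adjusted p = 2.37e-11), and PSAK had 1050 and 1220 CPM in L57, against 13.7 and 14.3 CPM in L26 (log2 fold change 6.33, SE 0.11). PSBQ-2 had 696 and 811 CPM in L57, against 9.67 and 10.6 CPM in L26 (log2 fold change 6.22, SE 0.16). Among genes named for photosystem I the log2 fold change ran from 4.57 in PSAD-1 to 6.56 in PSAO, apart from PSAP at 2.58. PSAP was matched by a synonym to a locus with the RefSeq symbol PSI-P. Among genes named for photosystem II it ran from 1.93 in PSB28 to 6.22 in PSBQ-2.

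Gene pairs for the same carrier differed in size of change. PETE1, 1 of a pair of plastocyanin genes, had 138 and 155 CPM in L57 against 4.24 and 4.22 CPM in L26 (log2 fold change 5.11, SE 0.11), and PETE2 had 2100 and 2390 CPM in L57 against 136 and 143 CPM in L26 (log2 fold change 4.01, SE 0.11). The ferredoxin gene FD2 had 1660 and 1830 CPM in L57 against 191 and 196 CPM in L26 (log2 fold change 3.17, SE 0.1). Its relative FD1 had 392 and 406 CPM in L57 against 292 and 301 CPM in L26 (log2 fold change 0.43, SE 0.1, adjusted p = 0.00253), the smallest change of the list and the 1 member under 2-fold. On the TPM scale FD1 lay below FD2 at 57 h, at 365 and 339 against 1340 and 1320, and above it at 26 h, at 496 and 514 against 281 and 291.

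In the photosystem promoters the I-box was found in 18 of 37 (48.6%), against 14.9% of all promoters, and the G-box in 12 of 37 (32.4%), against 8.56%. In the other lists the I-box share ran from 3.03% (expansins and xyloglucan transferases) to 52.6% (sugar starvation and dark response). Over the genome the I-box was found in 17.2% of promoters of protein-coding loci at least 2-fold higher and in 14.1% of those at least 2-fold lower. The G-box leaned the other way, at 7.96% of those higher and 10.5% of those lower.

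Carbon fixation rose from a higher starting level. Of the 22 Calvin cycle genes 21 were higher and 1 was lower (background 33.4% and 32.5%), with a median log2 fold change of 3.54 and a sum of 47372 and 55104 CPM in L57, against 4114 and 4102 CPM in L26. RBCS1A (chromosome 1, 25048158 to 25049667, minus strand), a gene of the small subunit of Rubisco, had the highest CPM of all protein-coding nuclear genes at 57 h, with 10400 and 12200 CPM in L57 against 1260 and 1270 CPM in L26 (log2 fold change 3.15, SE 0.13, adjusted p = 2.02e-10). RBCS3B had 8730 and 10700 CPM in L57 against 500 and 520 CPM in L26 (log2 fold change 4.25, SE 0.2). On the TPM scale, used to compare genes within a library, RBCS1A stood at 6490 and 6840 and RBCS3B at 5750 and 6310 in L57. In L26 RBCS1A stood at 1440 and 1460 and RBCS3B at 602 and 630, so that RBCS3B lay closer to RBCS1A at 57 h. RBCS1B, RBCS2B and RBCS3B are tandem copies, and the split of reads among them is uncertain.

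RCA, the gene of Rubisco activase, had 7060 and 8060 CPM in L57, against 190 and 187 CPM in L26 (log2 fold change 5.32, SE 0.13). CP12-2, which encodes a small linker that binds GAPDH and phosphoribulokinase, rose most, with 102 and 113 CPM in L57 against 1.85 and 2.18 CPM in L26 (log2 fold change 5.74, SE 0.14). GAPA-2, a gene of the plastid GAPDH, had 1650 and 1950 CPM in L57 against 46.4 and 45.1 CPM in L26 (log2 fold change 5.3). All 3 rose by more than RBCS1A. The transketolase pair moved apart. TKL1 had 1930 and 2090 CPM in L57 against 435 and 421 CPM in L26 (log2 fold change 2.23, SE 0.1), and TKL2, the single member that fell, had 17.3 and 16.1 CPM in L57 against 44.3 and 38.1 CPM in L26 (log2 fold change -1.3, SE 0.09, adjusted p = 2.45e-08).

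Photorespiration, which recovers the carbon lost when Rubisco takes up oxygen, rose in all 12 genes tested (background 33.4%), with a median log2 fold change of 3.40 and a sum of 9975 and 11668 CPM in L57, against 1294 and 1274 CPM in L26. AGT, a peroxisomal serine:glyoxylate aminotransferase gene, had 1360 and 1710 CPM in L57, against 16.8 and 14.2 CPM in L26 (log2 fold change 6.63, SE 0.14, adjusted p = 1.27e-12). GGT1, a glutamate:glyoxylate aminotransferase gene, had 1670 and 1960 CPM in L57 against 66.6 and 68.7 CPM in L26 (log2 fold change 4.75, SE 0.09). The hydroxypyruvate reductase gene HPR had 844 and 973 CPM in L57 against 38.3 and 37.2 CPM in L26 (log2 fold change 4.59, SE 0.09). The glycolate oxidase pair was uneven, since GOX1 had 810 and 941 CPM in L57 against 94.1 and 96.6 CPM in L26 (log2 fold change 3.2) and GOX2 had 783 and 892 CPM in L57 against 432 and 419 CPM in L26 (log2 fold change 0.98). On the TPM scale GOX1 and GOX2 were close at 57 h, at 408 and 425 for GOX1 and 376 and 385 for GOX2, whereas at 26 h GOX2 stood at 380 and 369 and GOX1 at 87.7 and 90.3.

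**Figure D2:**
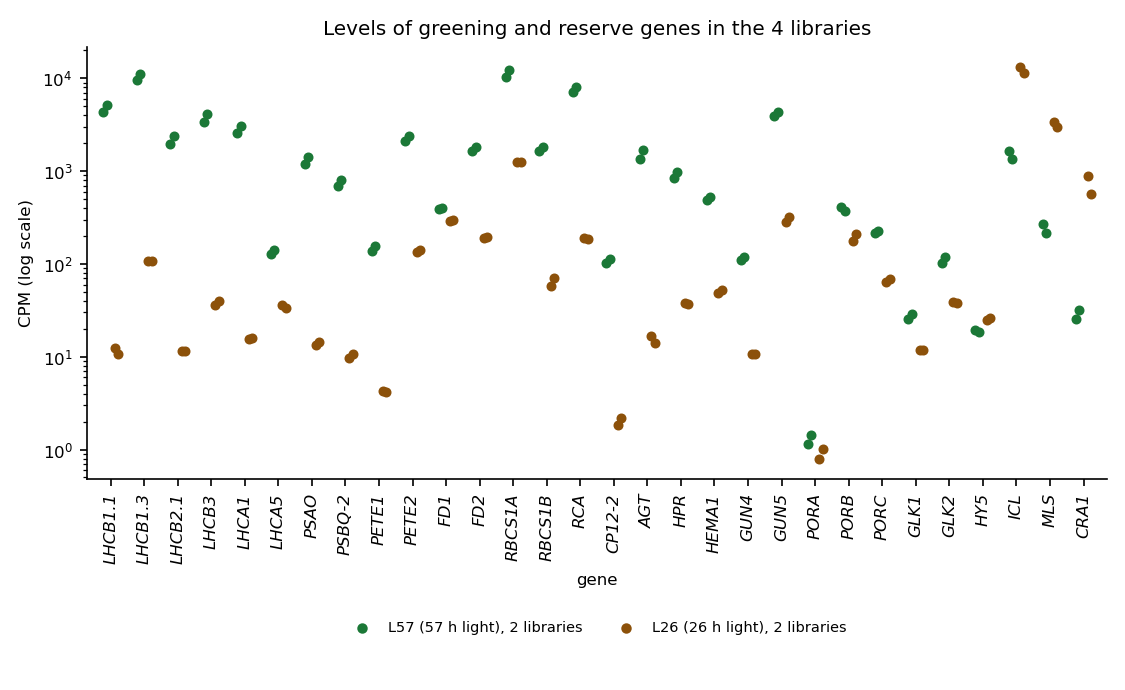
CPM on a log axis of 30 genes of the antenna, photosystems, carbon fixation, photorespiration, chlorophyll synthesis, regulation and reserve use, with 1 point per library, L57 in green and L26 in brown. Antenna genes such as LHCB1.1, at 4380 and 5110 CPM in L57 against 12.4 and 10.7 CPM in L26, show the widest gaps, PORA stays near 1 CPM in all 4 libraries, and HY5, ICL, MLS and CRA1 are the genes with the L57 points below the L26 points.

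Chlorophyll synthesis rose by less than the proteins that bind the pigment. Of 27 genes tested 26 were higher and 0 lower (background 33.4% and 32.5%), with a median log2 fold change of 1.21, and their sum was 11947 and 12934 CPM in L57, against 2786 and 2908 CPM in L26. GUN5, GUN4, CRD1 and HEMA1 had the largest changes of the list. HEMA1, the glutamyl-tRNA reductase that starts tetrapyrrole synthesis, had 484 and 532 CPM in L57 against 49 and 52.2 CPM in L26 (log2 fold change 3.33, SE 0.08, adjusted p = 2.24e-12). GUN5, the H subunit of magnesium chelatase, had 3960 and 4350 CPM in L57 against 280 and 324 CPM in L26 (log2 fold change 3.78, SE 0.21). GUN4, which activates that chelatase, had 110 and 119 CPM in L57 against 10.6 and 10.6 CPM in L26 (log2 fold change 3.43, SE 0.31). CRD1, of the later cyclase step, had 1760 and 1990 CPM in L57 against 176 and 190 CPM in L26 (log2 fold change 3.35, SE 0.09). The other chelatase subunit genes changed less, with CHLI1 at 991 and 1080 CPM in L57 against 246 and 255 CPM in L26 (log2 fold change 2.04) and ALB1, the D subunit, at 222 and 230 CPM in L57 against 113 and 115 CPM in L26 (log2 fold change 0.99).

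The 3 genes of protochlorophyllide oxidoreductase, the light-dependent step, behaved differently. PORC had 218 and 225 CPM in L57 against 64.4 and 68.9 CPM in L26 (log2 fold change 1.73, SE 0.08, adjusted p = 4.49e-10). PORB had 413 and 377 CPM in L57 against 176 and 209 CPM in L26 (log2 fold change 1.04, SE 0.12, adjusted p = 2.81e-06). PORA, known for its abundance in dark-grown seedlings, had 1.16 and 1.45 CPM in L57 against 0.79 and 1.02 CPM in L26 and did not pass (log2 fold change 0.53, SE 0.69, adjusted p = 0.527). On the TPM scale PORB was the highest of the 3 in every library and PORA stayed below 1.

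Pigments beside chlorophyll showed a mixed pattern. In the list of carotenoid and tocopherol synthesis 19 of 21 genes were higher and 1 was lower (background 33.4% and 32.5%), with a median log2 fold change of 1.21. The largest rises were those of BCH2, a beta-carotene hydroxylase gene, at 18.1 and 21 CPM in L57 against 0.919 and 0.546 CPM in L26 (log2 fold change 4.74, SE 0.18), and of HPD, which makes the head group of tocopherols and plastoquinone, at 80.4 and 102 CPM in L57 against 7.65 and 6.07 CPM in L26 (log2 fold change 3.73, SE 0.15). The zeaxanthin epoxidase gene ABA1 had 188 and 214 CPM in L57 against 28 and 25.4 CPM in L26 (log2 fold change 2.91, SE 0.09). VTE4, which encodes the last methylation step towards alpha-tocopherol, went the other way, with 13 and 11.3 CPM in L57 against 262 and 259 CPM in L26 (log2 fold change -4.42, SE 0.15, adjusted p = 2.93e-11). It was the single gene of the list that fell.

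The machinery that transcribes the plastid genome moved in both directions. Of 24 genes 10 were higher and 13 lower (background 33.4% and 32.5%), with a median log2 fold change of -0.26. Sigma factors, which guide the bacterial-type plastid polymerase to promoters, were higher in all 6 genes, and the nucleoid protein genes PTAC4, PTAC5, PTAC7 and PTAC16 were the other four that rose. SIGE had 45.5 and 52.5 CPM in L57 against 3.19 and 4.16 CPM in L26 (log2 fold change 3.74, SE 0.14), and SIGA had 60.3 and 62.8 CPM in L57 against 9.7 and 10.9 CPM in L26 (log2 fold change 2.58, SE 0.12). Among the genes that fell were accessory proteins of that polymerase. FSD3, a superoxide dismutase of the complex, had 40.9 and 36.4 CPM in L57 against 115 and 115 CPM in L26 (log2 fold change -1.58, SE 0.06), and FLN1, a fructokinase-like member, had 49.8 and 44.4 CPM in L57 against 123 and 114 CPM in L26 (log2 fold change -1.33, SE 0.07). SCA3, the phage-type plastid RNA polymerase itself, had 31.7 and 25.8 CPM in L57 against 101 and 110 CPM in L26 (log2 fold change -1.87, SE 0.15, adjusted p = 7.99e-08). PTAC16 had the largest change of the list, with 551 and 627 CPM in L57 against 16.9 and 18.6 CPM in L26 (log2 fold change 5.05, SE 0.16). The grouping into sigma factors and other proteins was made after the values were seen.

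In the list of thylakoid lipids 9 of 14 genes were higher and 0 lower (background 33.4% and 32.5%), with a median log2 fold change of 0.73. The desaturase gene FAD8 rose most among members over 10 CPM, at 86.3 and 97.1 CPM in L57 against 19.8 and 18.7 CPM in L26 (log2 fold change 2.25, SE 0.09). DGD1, which makes digalactosyldiacylglycerol, had 53.4 and 52.5 CPM in L57 against 21.3 and 22.2 CPM in L26 (log2 fold change 1.28, SE 0.07). MGD1, the main synthase of monogalactosyldiacylglycerol, had 49.3 and 53.1 CPM in L57 against 32.2 and 33.1 CPM in L26 (log2 fold change 0.65, SE 0.08).

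The regulators as a list changed less than the photosynthesis genes. In the list of light signalling 19 of 31 genes were higher and 9 lower (background 33.4% and 32.5%), with a median log2 fold change of 0.39. GLK1 and GLK2 encode transcription factors that activate photosynthesis genes. GLK1 had 25.6 and 29.2 CPM in L57 against 11.8 and 11.8 CPM in L26 (log2 fold change 1.21, SE 0.1, adjusted p = 1.77e-07), and GLK2 had 103 and 120 CPM in L57 against 39 and 38.1 CPM in L26 (log2 fold change 1.53, SE 0.12, adjusted p = 9.85e-08). HY5, a bZIP factor that promotes development in light, had 19.4 and 18.6 CPM in L57 against 25.1 and 26.3 CPM in L26 (log2 fold change -0.44, SE 0.09, adjusted p = 0.000938). The libraries of the stages did not overlap for HY5, but its call is lost with DESeq2 scaling (log2 fold change -0.23, adjusted p = 0.0645).

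Phytochrome-interacting factors, which restrain light responses and promote elongation, moved in opposite directions. PIF5 had 67.6 and 76.2 CPM in L57 against 4.2 and 4.19 CPM in L26 (log2 fold change 4.1, SE 0.11), PIF4 had 10.6 and 10.8 CPM in L57 against 2.89 and 2.14 CPM in L26 (log2 fold change 2.09, SE 0.16), and PIF7 had 10.2 and 13 CPM in L57 against 0.395 and 0.359 CPM in L26 (log2 fold change 4.94, SE 0.17). PIF1, known for its role in seed germination, had 30.5 and 28.9 CPM in L57 against 67.5 and 64.2 CPM in L26 (log2 fold change -1.15, SE 0.12), and its relative SPT had 17.5 and 14.7 CPM in L57 against 45.4 and 49.5 CPM in L26 (log2 fold change -1.56, SE 0.12). PIF4, PIF5 and PIF7 were thus higher, and PIF1, PIF3 and SPT lower, in the seedling. Among photoreceptors, CRY1 had 152 and 165 CPM in L57 against 52.9 and 54.2 CPM in L26 (log2 fold change 1.57, SE 0.06), and PHYA had 272 and 274 CPM in L57 against 382 and 343 CPM in L26 (log2 fold change -0.41, SE 0.08).

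Protection against excess light rose in 13 of 17 genes and fell in 3 (background 33.4% and 32.5%), with a median log2 fold change of 2.25. NPQ4, the PsbS protein of energy dissipation, had 1440 and 1600 CPM in L57 against 163 and 174 CPM in L26 (log2 fold change 3.17, SE 0.09), and STN7, the kinase of state transitions, had 100 and 122 CPM in L57 against 9.78 and 9.77 CPM in L26 (log2 fold change 3.51, SE 0.09). The early light-induced genes took another course. ELIP1 had 217 and 163 CPM in L57 against 151 and 166 CPM in L26 and did not pass (log2 fold change 0.26, adjusted p = 0.221), and ELIP2 had 119 and 103 CPM in L57 against 146 and 153 CPM in L26 (log2 fold change -0.43, SE 0.14). Both had been far lower at 6 h of light, at means of 3.37 and 1.57 CPM, so that most of their rise came in the earlier step.

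The timing was examined with the difference between this step and the one before it, from 6 h to 26 h, in the same model. The step from 26 h to 57 h is the longer one, so that the difference does not compare rates per hour. A positive difference was called at 6398 loci (23.0%) and a negative one at 7833 loci (28.2%), against 8164 loci higher (29.4%) and 8473 lower (30.5%) in L26 than in L6. Both steps use the L26 libraries, which the contrast takes into account. The antenna list had a positive difference in 19 of 20 genes and a negative one in 0, with a median log2 fold change of 6.44 for L57 over L26, against 2.61 for L26 over L6. For chlorophyll synthesis the order was the reverse, with a positive difference in 6 of 27 genes and a negative one in 12, and medians of 1.21 for L57 over L26 and 1.60 for L26 over L6. PORB, for example, had a difference of -2.25 (SE 0.19, adjusted p = 5.29e-07) and HY5 one of -1.61 (SE 0.16, adjusted p = 1.69e-06).

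Some genes changed course between the steps. AGT had fallen before it rose, at a mean of 15.5 CPM in L26 against 26.3 CPM in L6, and had a difference of 7.39 (SE 0.23). Cytosolic ribosomal protein genes had a negative difference in 27 of 27 genes (background 28.2%), with medians of -1.54 for L57 over L26 and 0.49 for L26 over L6.

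**Figure D3:**
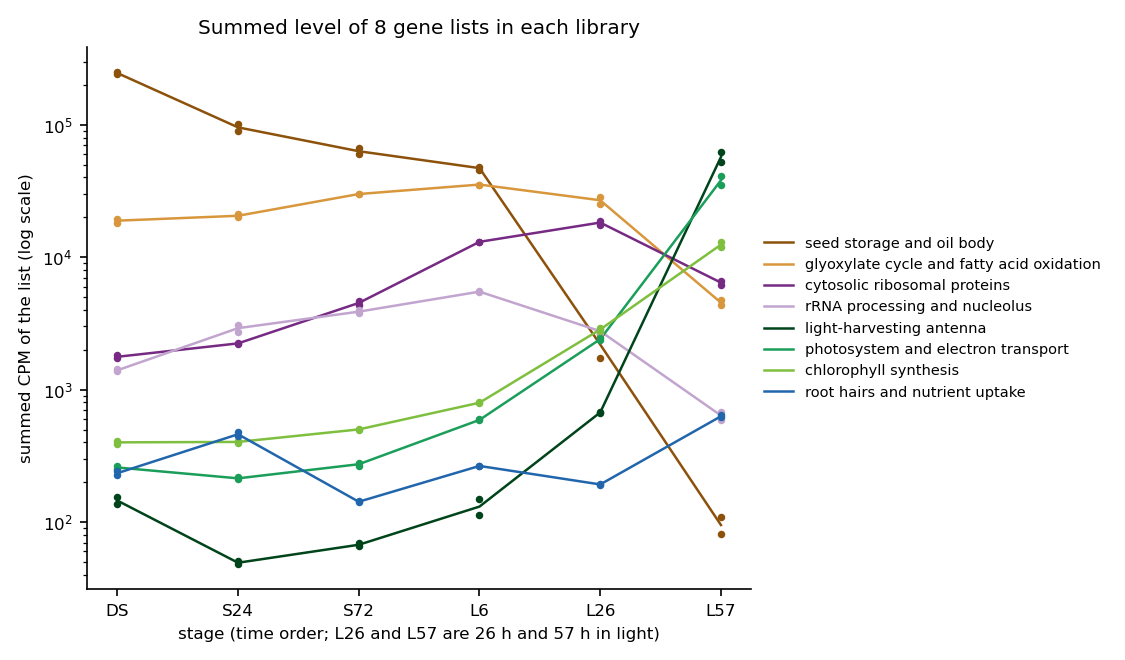
Summed CPM of 8 gene lists on a log axis against the 6 Col-0 stages in time order, from dry seed (DS) to L57, with 1 point per library and lines through the stage means. From L26 to L57 the antenna and photosystem lines climb to at least 35185 CPM, the seed storage line drops to at most 109 CPM, and the ribosomal protein line turns down after its peak at L26.

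Genes for the use of the oil reserve mostly fell. Of the 24 genes of the glyoxylate cycle and fatty acid oxidation 21 were lower and 3 higher (background 32.5% and 33.4%), with a median log2 fold change of -1.71, and their sum was 4719 and 4358 CPM in L57, against 28439 and 25391 CPM in L26. ICL (chromosome 3, 7652487 to 7656053, minus strand), the isocitrate lyase of the glyoxylate cycle, had 1650 and 1350 CPM in L57 against 13400 and 11500 CPM in L26, where it had the highest CPM of all protein-coding genes (log2 fold change -3.05, SE 0.15, adjusted p = 8.29e-10). MLS, the malate synthase of the same cycle, had 267 and 215 CPM in L57 against 3350 and 2990 CPM in L26 (log2 fold change -3.72, SE 0.15, adjusted p = 1.24e-10). PCK1, which leads from oil to sugar, had 458 and 435 CPM in L57 against 3400 and 3100 CPM in L26 (log2 fold change -2.86, SE 0.1). Even so ICL remained above 1000 CPM in each L57 library.

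Peroxisomal malate dehydrogenase switched genes, since PMDH1 had 73.4 and 64.4 CPM in L57 against 650 and 600 CPM in L26 (log2 fold change -3.18, SE 0.09) and PMDH2 had 465 and 556 CPM in L57 against 52.2 and 55.3 CPM in L26 (log2 fold change 3.25, SE 0.15). The fatty acid oxidation gene MFP2 had 177 and 155 CPM in L57 against 1630 and 1510 CPM in L26 (log2 fold change -3.24, SE 0.1), whereas its homologue AIM1 had 102 and 103 CPM in L57 against 127 and 118 CPM in L26 (log2 fold change -0.26, SE 0.06). The oil lipase gene SDP1-LIKE had 2.02 and 1.94 CPM in L57 against 40.4 and 38.9 CPM in L26 (log2 fold change -4.32, SE 0.1), and SDP1 had 80.2 and 87.6 CPM in L57 against 149 and 142 CPM in L26 (log2 fold change -0.8, SE 0.09). In the MFP2 and SDP1-LIKE pairs 1 gene thus changed far more than the other, whereas PMDH1 and PMDH2 changed by similar amounts in opposite directions.

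Seed storage and oil body genes fell in all 20 genes tested (background 32.5%), 19 of them at least 2-fold, with a median log2 fold change of -4.60 and a sum of 81.1 and 109 CPM in L57, against 2643 and 1739 CPM in L26. L26 replicate 1 was higher than L26 replicate 2 in every gene of the list, and the 2 L26 libraries still lay above the L57 libraries throughout. CRA1, a cruciferin gene, had 25.5 and 32.3 CPM in L57 against 893 and 571 CPM in L26 (log2 fold change -4.66, SE 0.25, adjusted p = 2.34e-09). LEA4-5, a late embryogenesis abundant protein gene, had 2.11 and 3.88 CPM in L57 against 399 and 259 CPM in L26 (log2 fold change -6.78, SE 0.38). OLEO2, an oleosin gene of the oil body surface, had 1.33 and 1.55 CPM in L57 against 75.5 and 47.4 CPM in L26 (log2 fold change -5.41, SE 0.33). At 57 h these transcripts were thus scarce rather than absent.

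The G-box was found in 11 of 20 promoters of this list (55.0%), against 8.56% of all promoters and 10.5% of those of loci at least 2-fold lower. Among the other largest changes of the list, PER1 holds a G-box before the start, while OLEO2 and TIP3-1 do not. The promoter of LEA4-5 is shown as an example, with its G-box starting 127 bases upstream of the gene start.
LEA4-5 (chr5:2090431-2090680, minus strand): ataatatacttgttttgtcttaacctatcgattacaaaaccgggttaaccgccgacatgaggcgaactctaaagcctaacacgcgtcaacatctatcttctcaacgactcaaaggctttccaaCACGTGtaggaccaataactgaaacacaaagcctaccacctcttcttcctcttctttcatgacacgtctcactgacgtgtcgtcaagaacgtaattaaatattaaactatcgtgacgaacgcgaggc
The same letters occurred in 52.6% of promoters of the clock list described below, in which most genes rose.

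Endosperm and seed coat genes, markers of tissues that the seedling leaves behind, were tested in 12 of 16 members, of which 3 were higher and 6 lower (background 33.4% and 32.5%), with a median log2 fold change of -1.56 and a summed level of 151 and 163 CPM in L57 against 1098 and 918 CPM in L26. EXPA2, an expansin gene of the endosperm at germination, had 5.97 and 10.2 CPM in L57 against 677 and 549 CPM in L26 (log2 fold change -6.24, SE 0.25, adjusted p = 1.3e-10). MAN7, an endo-mannanase gene, had 6.76 and 8.59 CPM in L57 against 134 and 101 CPM in L26 (log2 fold change -3.94, SE 0.18). EXPA2 alone thus supplied most of the L26 sum. The 3 genes that were higher were MUM4, of seed coat mucilage (log2 fold change 0.67, SE 0.08), and the flavonoid genes TT8 and TT10 at low levels. TT8 had 1.92 and 1.42 CPM in L57 against 0.0 and 0.0245 CPM in L26, and TT10 had 0.362 and 0.547 CPM in L57 and 0 counts in L26, at least 18.1-fold higher. The seed coat markers BAN, TT2 and TT16 had 0 counts in all 4 libraries. The part of seed tissue left in the L26 flasks in the changes of these genes was not tested.

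Ribosomal protein genes mostly fell. All 27 cytosolic ribosomal protein genes tested were lower in L57 (background 32.5%), each at least 2-fold, with a median log2 fold change of -1.54, and their sum was 6662 and 6194 CPM in L57, against 18884 and 17647 CPM in L26. The log2 fold changes ran from -2.45 in RPSaB to -1.26 in RPS5A. Over all 322 tested loci whose RefSeq product name is a 60S or 40S ribosomal protein, a grouping made after values had been seen, 263 were lower and 40 higher, 25 of these at least 2-fold, with a median of -1.51. RPL3A had 841 and 772 CPM in L57 against 2340 and 2030 CPM in L26 (log2 fold change -1.44, SE 0.09), and RPL16B had 182 and 158 CPM in L57 against 623 and 570 CPM in L26 (log2 fold change -1.81, SE 0.09, adjusted p = 6.73e-10). RPS10B had 97.4 and 90.8 CPM in L57 against 335 and 271 CPM in L26 (log2 fold change -1.69, SE 0.11). Many of these genes have close paralogues, so that values of single copies are uncertain.

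Genes of rRNA processing and the nucleolus fell further, with all 17 tested lower and at least 2-fold (background 32.5%), a median log2 fold change of -2.19 and a sum of 684 and 592 CPM in L57 against 2852 and 2676 CPM in L26. CBF5, the pseudouridine synthase of box H/ACA particles, had 46.4 and 38.8 CPM in L57 against 268 and 230 CPM in L26 (log2 fold change -2.55, SE 0.1, adjusted p = 1.72e-10). FIB2, a fibrillarin gene, had 21.9 and 19.2 CPM in L57 against 124 and 110 CPM in L26 (log2 fold change -2.51, SE 0.13), and NUC1, a nucleolin gene, had 130 and 110 CPM in L57 against 565 and 533 CPM in L26 (log2 fold change -2.19, SE 0.1). The list had been falling before, with a median of -0.90 for L26 over L6, and a negative step difference was called in 17 of 17 genes (background 28.2%).

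These 2 lists share promoter letters. Site II was found in 17 of 27 ribosomal protein promoters (63.0%) and 11 of 17 promoters of rRNA processing genes (64.7%), against 17.4% of all promoters, and the telo-box in 48.1% and 64.7%, against 5.72%. Across the genome site II was found in 8.93% of promoters of protein-coding loci at least 2-fold higher and in 25.2% of those at least 2-fold lower, and the telo-box in 2.61% and 13%. Promoters of RPL16B and RPS10B are shown as examples of the telo-box and of site II.
RPL16B (chr4:10301913-10302162, plus strand): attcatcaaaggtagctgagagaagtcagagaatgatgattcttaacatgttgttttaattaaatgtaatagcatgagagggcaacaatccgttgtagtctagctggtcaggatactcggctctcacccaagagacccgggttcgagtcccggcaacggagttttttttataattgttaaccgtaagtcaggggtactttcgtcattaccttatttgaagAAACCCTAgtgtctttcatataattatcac
RPS10B (chr5:16610693-16610942, minus strand): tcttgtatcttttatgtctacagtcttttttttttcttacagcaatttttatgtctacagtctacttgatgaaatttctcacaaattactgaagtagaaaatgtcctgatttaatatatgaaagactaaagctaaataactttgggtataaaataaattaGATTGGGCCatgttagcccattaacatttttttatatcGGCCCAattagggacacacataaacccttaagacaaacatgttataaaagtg
The telo-box of RPL16B starts 30 bases upstream of the gene start. RPS10B holds site II on both strands, starting 87 and 52 bases upstream, and the first of them overlaps a reverse CCAATC. Among the other largest changes of these lists, RPSaB, RPL23AB, CBF5, FIB2 and APUM24 hold neither motif before the start, while TOZ holds site II.

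**Figure D4:**
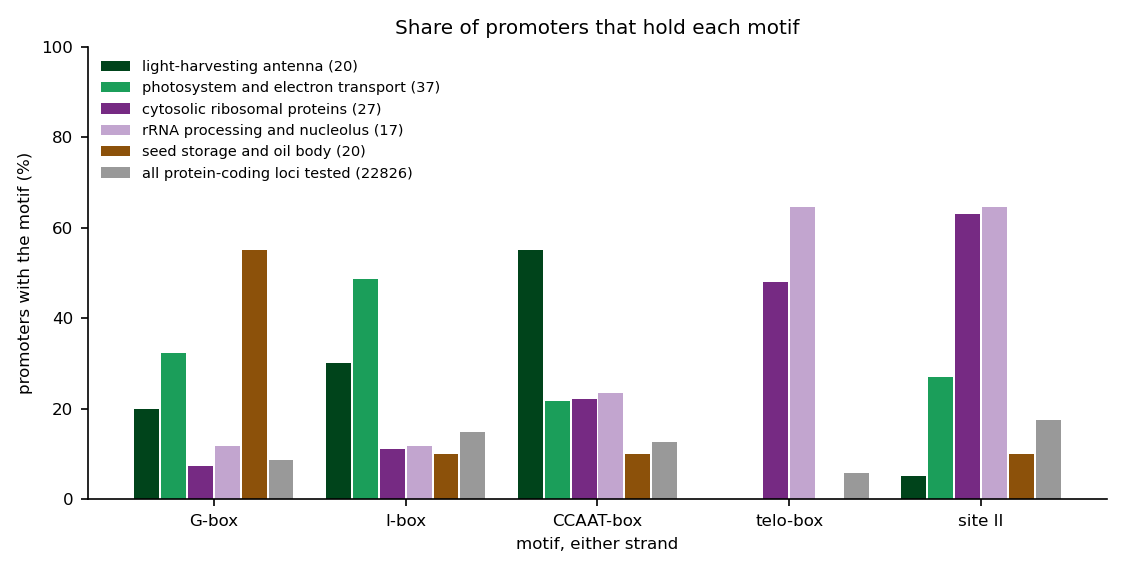
Share of promoters (%, from 250 bases before to 50 bases after the gene start) that hold each of 5 motifs on either strand, for 5 gene lists with the number of promoters in the legend and for all protein-coding loci tested in grey. Among the lists drawn, the CCAAT-box bar is tallest for the antenna (55.0%) and the I-box bar for the photosystems (48.6%). The G-box bar is tallest for seed storage (55.0%), and the telo-box and site II bars for rRNA processing (64.7% each). The telo-box bar is at 0 for the antenna, photosystem and seed storage lists.

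Cell cycle genes moved in both directions. In the list of DNA replication and mitosis 16 of 39 genes were higher and 19 lower (background 33.4% and 32.5%), with a median log2 fold change of -0.49. DESeq2 scaling turned the balance of this list, with 17 genes lower. Genes of mitosis were among those that rose. KNOLLE, the syntaxin of the cell plate, had 31.9 and 33.6 CPM in L57 against 3.76 and 4.51 CPM in L26 (log2 fold change 2.98, SE 0.19, adjusted p = 1.37e-08), and CDC20.1, an activator of the anaphase-promoting complex, had 25.7 and 23.2 CPM in L57 against 3.44 and 4.12 CPM in L26 (log2 fold change 2.69, SE 0.18). CYCB1;2, a mitotic cyclin gene, had 25.7 and 25.1 CPM in L57 against 3.91 and 5.22 CPM in L26 (log2 fold change 2.47, SE 0.14).

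Genes of DNA replication were among those that fell. PCNA1, a gene of the sliding clamp of DNA polymerase, had 16 and 15 CPM in L57 against 34.1 and 35.6 CPM in L26 (log2 fold change -1.17, SE 0.09), and MCM2, of the replicative helicase, had 28.8 and 24.4 CPM in L57 against 53.6 and 55.4 CPM in L26 (log2 fold change -1.03, SE 0.1). RNR1, a ribonucleotide reductase gene, had 61.2 and 54.9 CPM in L57 against 124 and 129 CPM in L26 (log2 fold change -1.12, SE 0.07). All 6 MCM genes listed by number were lower, and the grouping by phase was made after the values were seen.

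Wall-loosening genes moved in both directions. Of 33 expansin and xyloglucan transferase genes 16 were higher and 12 lower (background 33.4% and 32.5%), with a median log2 fold change of 0.66, while the summed level hardly moved, at 2223 and 2343 CPM in L57 against 2546 and 2431 CPM in L26. XTH24 had 171 and 211 CPM in L57 against 7.26 and 7.96 CPM in L26 (log2 fold change 4.65, SE 0.18), and EXPA5 had 19.4 and 18.4 CPM in L57 against 0.429 and 0.668 CPM in L26 (log2 fold change 5.1, SE 0.4). In the other direction XTH5 had 5.46 and 6.86 CPM in L57 against 167 and 169 CPM in L26 (log2 fold change -4.77, SE 0.15), and EXPA9 had 36.9 and 33.4 CPM in L57 against 367 and 341 CPM in L26 (log2 fold change -3.33, SE 0.2).

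Most marker genes of the endodermis were higher in L57. The Casparian strip is a lignin band that seals the walls of the endodermis. Of 18 genes of the Casparian strip and endodermis 15 were higher and 2 lower (background 33.4% and 32.5%), with a median log2 fold change of 7.99, or 6.43 when the 6 genes without a count in L26 were set to their lower bound. Their summed level changed by less, at 249 and 247 CPM in L57 against 100 and 98.4 CPM in L26, a 2.49-fold difference of the means. CASP1, which scaffolds the strip, had 29.8 and 28.5 CPM in L57 and 0 counts in either L26 library, at least 1160-fold higher against a floor of 3 counts per library. PER64, a peroxidase gene of strip lignification, had 28.1 and 29.1 CPM in L57 and 0 counts in L26, at least 1140-fold higher. CASP2 had 11.2 and 10.5 CPM in L57 and 0 counts in L26, at least 431-fold higher. The suberin genes FAR4, CYP86A1 and GPAT5 likewise had 0 counts in L26, but reached only 0.45 to 2.3 CPM in L57.

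The regulators SCR and SHR were already detected at 26 h at levels near those at 57 h. MYB36, which switches on the strip genes, had 6.29 and 6.93 CPM in L57 against 0.859 and 0.791 CPM in L26 (log2 fold change 3.0, SE 0.22, adjusted p = 4.45e-08). SCR, which specifies the tissue, had 22.9 and 26 CPM in L57 against 20.9 and 21.2 CPM in L26 (log2 fold change 0.21, SE 0.08, adjusted p = 0.0386), and SHR had 13.3 and 13.5 CPM in L57 against 13.5 and 11.5 CPM in L26 and did not pass (log2 fold change 0.09, adjusted p = 0.649).

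Root hair and nutrient uptake genes were higher in 27 of 31 and lower in 4 (background 33.4% and 32.5%), with a median log2 fold change of 3.64, or 3.17 with bounds, and a sum of 617 and 642 CPM in L57 against 195 and 190 CPM in L26. PHT1;1, a phosphate transporter gene, had 69.1 and 74.2 CPM in L57 against 0.472 and 0.342 CPM in L26 (log2 fold change 7.46, SE 0.26). AMT1;2, an ammonium transporter gene, had 22.2 and 23.6 CPM in L57 against 0.18 and 0.359 CPM in L26 (log2 fold change 6.39, SE 0.45). EXPA18 and EXPA7, expansin genes of growing hairs, had 22.4 and 22 and 26.6 and 23.9 CPM in L57, against 0.738 and 0.652 and 1.25 and 1.25 CPM in L26 (log2 fold changes 5.0 and 4.34).

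The regulators of hair growth moved in opposite directions. RHD6 and RSL1, which act first, fell. RHD6 had 2.9 and 2.91 CPM in L57 against 15 and 14.4 CPM in L26 (log2 fold change -2.34, SE 0.13, adjusted p = 2.12e-09). RSL4, which acts after them and drives hair elongation, had 12.7 and 13.5 CPM in L57 against 0.901 and 1.2 CPM in L26 (log2 fold change 3.64, SE 0.21), and RSL2 had 2.2 and 2.32 CPM in L57 and 0 counts in L26, at least 90-fold higher.

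**Figure D5:**
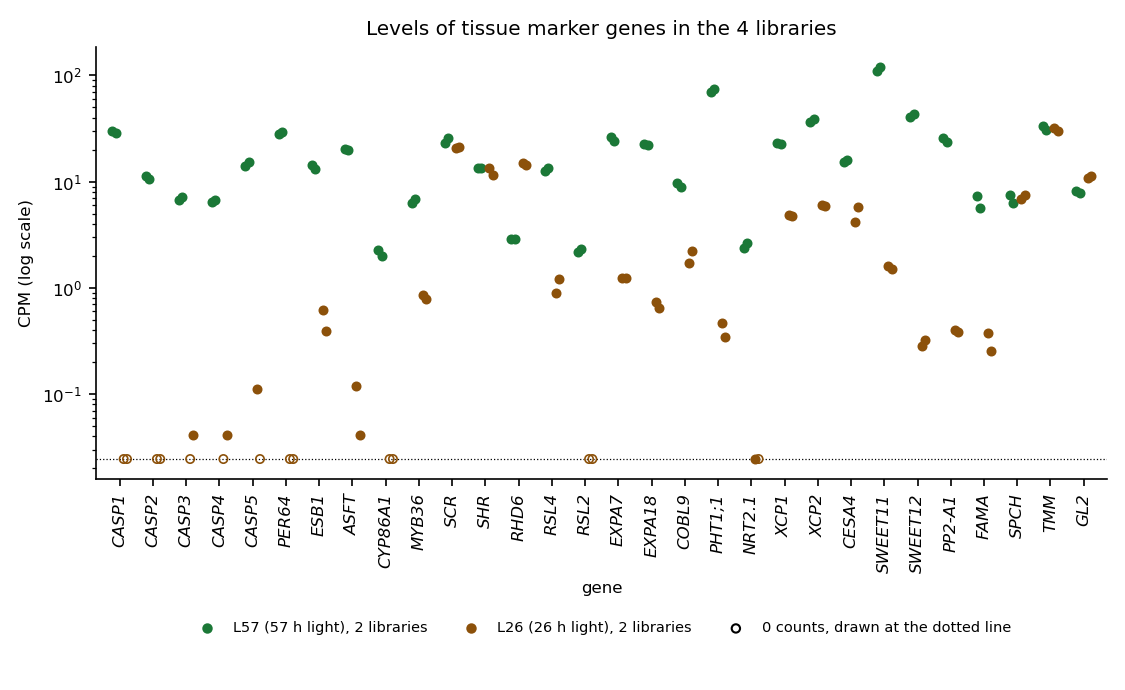
CPM on a log axis of 30 marker genes of the endodermis, root hairs, nutrient uptake, xylem, phloem and leaf surface, with 1 point per library, L57 in green, L26 in brown and open circles on the dotted line for 0 counts. CASP1, CASP2, PER64, CYP86A1 and RSL2 have open circles in both L26 libraries, whereas the 4 points of SCR, SHR, SPCH and TMM lie close together.

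Vascular genes were higher in 18 of 28 and lower in 2 (background 33.4% and 32.5%), with a median log2 fold change of 1.54. SWEET11 and SWEET12, which export sucrose to the phloem, rose most. SWEET11 had 110 and 121 CPM in L57 against 1.6 and 1.52 CPM in L26 (log2 fold change 6.21, SE 0.09, adjusted p = 5.61e-13), and SWEET12 had 40.5 and 43.4 CPM in L57 against 0.283 and 0.326 CPM in L26 (log2 fold change 7.1, SE 0.19). XCP2, a protease gene of dying xylem vessels, had 36.2 and 38.9 CPM in L57 against 6.09 and 5.95 CPM in L26 (log2 fold change 2.64, SE 0.23). SUC2, the sucrose loader of companion cells, had 56.7 and 59 CPM in L57 against 56.8 and 44.5 CPM in L26 and did not pass (adjusted p = 0.0657). The sieve element genes SEOR1 and SEOR2 went down, SEOR1 with 17.2 and 19.7 CPM in L57 against 45.6 and 43.4 CPM in L26 (log2 fold change -1.27, SE 0.28).

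Genes of stomata, trichomes and the leaf surface showed no common direction, with 14 of 34 higher and 7 lower (background 33.4% and 32.5%) and a median log2 fold change of 0.08. FAMA, which completes the guard cell fate, had 7.27 and 5.65 CPM in L57 against 0.378 and 0.253 CPM in L26 (log2 fold change 4.36, SE 0.32). The earlier stomatal regulators stayed or fell, with SPCH at 7.51 and 6.31 CPM in L57 against 6.84 and 7.43 CPM in L26 (adjusted p = 0.879) and MUTE at 2.17 and 2.04 CPM in L57 against 4.16 and 5.09 CPM in L26 (log2 fold change -1.13, SE 0.19). Wax synthesis was mostly higher, since KCS1 had 104 and 105 CPM in L57 against 14 and 17.8 CPM in L26 (log2 fold change 2.72, SE 0.13) and CER6 had 199 and 197 CPM in L57 against 34.5 and 36.8 CPM in L26 (log2 fold change 2.47, SE 0.07). CER1, of alkane formation, was the exception with 11.5 and 10.4 CPM in L57 against 60.8 and 73 CPM in L26 (log2 fold change -2.61, SE 0.24). GL1, the trichome regulator, had at most 0.0575 CPM in any of the 4 libraries.

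Nitrogen and sulfur assimilation moved in both directions. In the list of nitrogen and sulfur assimilation 16 of 26 genes were higher and 8 lower (background 33.4% and 32.5%), with a median log2 fold change of 0.60 and a sum of 10430 and 11766 CPM in L57 against 2522 and 2299 CPM in L26. NIA2, a nitrate reductase gene, had 1460 and 1700 CPM in L57 against 36.9 and 36.7 CPM in L26 (log2 fold change 5.42, SE 0.1, adjusted p = 6.14e-13). The plastid pair GLN2 and GLU1, which together assimilate ammonium, had 2590 and 3020 CPM in L57 against 66.2 and 70.2 CPM in L26 (log2 fold change 5.36) for GLN2 and 1560 and 1720 CPM in L57 against 36.8 and 41.5 CPM in L26 (log2 fold change 5.39) for GLU1. The cytosolic glutamine synthetase gene GLN1.3 fell, with 61.9 and 63.8 CPM in L57 against 206 and 186 CPM in L26 (log2 fold change -1.64, SE 0.07).

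ASN1, an asparagine synthetase gene also known as DIN6 and marked by sugar starvation, had 380 and 572 CPM in L57 against 5.09 and 3.38 CPM in L26 (log2 fold change 6.81, SE 0.35). The starvation and dark response list as a whole was higher in 18 of 19 genes and lower in 1 (background 33.4% and 32.5%), with a median log2 fold change of 2.17, or 1.72 with bounds. BCAT2, of branched-chain amino acid breakdown, had 22.2 and 32.2 CPM in L57 against 0.652 and 0.481 CPM in L26 (log2 fold change 5.59, SE 0.39), and MCCA, of leucine breakdown, had 127 and 161 CPM in L57 against 13.1 and 12.4 CPM in L26 (log2 fold change 3.5, SE 0.18). In these 3 genes L57 replicate 2 was higher than L57 replicate 1, and both lay above L26. ASN1 and BCAT2 had been higher in dry seeds, at means of 2340 and 66.6 CPM, than in L57, at 476 and 27.2 CPM. MCCA had been lower, at 83 CPM in dry seeds against 144 CPM in L57. The sum of the list was 3338 and 4005 CPM in L57, 1297 and 1316 CPM in L26, and 3481 and 3763 CPM in dry seeds. The seedlings stood in continuous light, and no sugar level is among the data used here.

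Carbon storage and transport were divided. Of 32 sucrose and starch genes 19 were higher and 9 lower (background 33.4% and 32.5%), with a median log2 fold change of 0.49. TPT, which exports triose phosphate from the plastid, had 751 and 851 CPM in L57 against 79.1 and 86.6 CPM in L26 (log2 fold change 3.27, SE 0.14). The large subunit genes of ADP-glucose pyrophosphorylase, the first step of starch synthesis, exchanged places. APL1 had 212 and 232 CPM in L57 against 7.04 and 8.58 CPM in L26 (log2 fold change 4.83, SE 0.09), while APL2 had 6.73 and 5.72 CPM in L57 against 31.1 and 31.3 CPM in L26 (log2 fold change -2.32, SE 0.1) and APL3 had 12 and 8.18 CPM in L57 against 29.7 and 35.8 CPM in L26 (log2 fold change -1.7, SE 0.18). SWEET16, a vacuolar sugar carrier gene, had 10.5 and 11.3 CPM in L57 and 0 counts in L26, at least 435-fold higher.

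Glucosinolates are defence compounds made from methionine (aliphatic) or tryptophan (indolic). Of 29 genes of glucosinolates and myrosinases 16 were higher and 7 lower (background 33.4% and 32.5%), with a median log2 fold change of 1.24, or 1.04 with bounds. In the aliphatic branch MAM3 had 13.6 and 9.87 CPM in L57 and 0 counts in L26, at least 467-fold higher, and MYB28, its regulator, had 7.6 and 5.81 CPM in L57 against 0.0515 and 0.0326 CPM in L26 (log2 fold change 7.29, SE 0.35). In the indolic branch CYP83B1 had 56.4 and 50.8 CPM in L57 against 371 and 346 CPM in L26 (log2 fold change -2.74, SE 0.15), CYP79B2 had 26.6 and 22 CPM in L57 against 104 and 99.5 CPM in L26 (log2 fold change -2.07, SE 0.18), and MYB34 had 12.5 and 10.9 CPM in L57 against 52.4 and 59.2 CPM in L26 (log2 fold change -2.25, SE 0.2). The grouping of these genes by branch was made after the values were seen. Of the 7 genes that fell, CYP79B2, CYP83B1, MYB34 and SOT16 act in the indolic branch, SUR1 and UGT74B1 in core steps of both branches, and SOT17 in the sulfation of aliphatic precursors. PYK10, the beta-glucosidase of endoplasmic reticulum bodies and 1 of the 5 protein-coding genes of highest CPM at both stages, had 6850 and 6010 CPM in L57 against 5210 and 5940 CPM in L26 and did not pass (log2 fold change 0.21, adjusted p = 0.17), although it did with DESeq2 scaling (log2 fold change 0.41, adjusted p = 0.00943).

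Flavonoid genes were higher in 17 of 25 and lower in 4 (background 33.4% and 32.5%), with a median log2 fold change of 1.35. The late genes of anthocyanin synthesis were near 0 CPM in L26 and rose, with DFR at 26.9 and 17.8 CPM in L57 against 0.0343 and 0.0 CPM in L26 (log2 fold change 10.3, SE 0.66) and LDOX at 25.8 and 19.4 CPM in L57 against 0.0859 and 0.147 CPM in L26 (log2 fold change 7.58, SE 0.49). PAL1, the entry to phenylpropanoids, had 219 and 190 CPM in L57 against 4.82 and 3.88 CPM in L26 (log2 fold change 5.56, SE 0.12). The early gene F3H fell, with 52.5 and 39.8 CPM in L57 against 73.4 and 71.5 CPM in L26 (log2 fold change -0.65, SE 0.12). For DFR and LDOX, L57 replicate 1 was the higher library.

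Clock genes were higher in 16 of 19 and lower in 3 (background 33.4% and 32.5%), with a median log2 fold change of 1.47. LNK2, a coactivator gene, had 160 and 185 CPM in L57 against 13.3 and 17.1 CPM in L26 (log2 fold change 3.5, SE 0.11), and CCA1, a morning factor gene, had 77.2 and 83 CPM in L57 against 12.7 and 15.8 CPM in L26 (log2 fold change 2.49, SE 0.12). PRR7, which represses CCA1, rose as well, with 50.7 and 63 CPM in L57 against 11.2 and 11.4 CPM in L26 (log2 fold change 2.33, SE 0.12). TOC1, an evening gene, had 49.2 and 51.9 CPM in L57 against 43.1 and 38.9 CPM in L26 (log2 fold change 0.3, SE 0.1, adjusted p = 0.019), and ELF4 had 1.37 and 1.55 CPM in L57 against 6.24 and 4.71 CPM in L26 (log2 fold change -1.9, SE 0.31). Each stage was sampled at a single time in continuous light, so that a phase of the clock and a stage of development cannot be told apart.

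Among all annotated loci of at least 20 CPM, 5 of the 10 largest rises had 0 counts in both L26 libraries. CASP1 and PER64 are described above. AT2G45220, of the pectin methylesterase superfamily, had 31.4 and 34.5 CPM in L57, at least 1310-fold higher. AT5G44440, of the berberine bridge enzyme family, had 21.9 and 26.8 CPM in L57, at least 970-fold higher, and CRK40, a cysteine-rich receptor kinase gene, had 20.3 and 22.7 CPM in L57, at least 857-fold higher. The other five were detected at 26 h by at most a few counts or at under 0.4 CPM. CA1 (chromosome 3, 194426 to 198664, minus strand), a plastid carbonic anhydrase gene, had 2190 and 2650 CPM in L57 against 0.386 and 0.293 CPM in L26 (log2 fold change 12.8, SE 0.21, adjusted p = 5.61e-13). CA1 and LHCB1.4 reached far higher levels at 57 h than the other 8. XTH6 reached 119 and 136 CPM in L57 against 0.0 and 0.0408 CPM in L26, AT4G12545, of the lipid transfer superfamily, 57.6 and 58.2 CPM in L57 against 0.0172 and 0.0 CPM in L26, and the peroxidase gene AT2G38380 50.7 and 46.5 CPM in L57 against 0.0 and 0.0163 CPM in L26.

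The 10 largest falls were led by AT2G25890, an oleosin family gene, with 0.0302 and 0.0863 CPM in L57 against 32.2 and 20.7 CPM in L26 (log2 fold change -8.79, SE 0.6, adjusted p = 2.05e-08). Others were known for late embryogenesis or abscisic acid responses, such as LEA7 at 1.69 and 3.02 CPM in L57 against 312 and 225 CPM in L26 (log2 fold change -6.83) and HVA22B at 0.498 and 0.762 CPM in L57 against 85.1 and 63.8 CPM in L26 (log2 fold change -6.88). 8 of the 10 had a higher mean in dry seeds (DS) than in L26, such as ATOEP16-2, a plastid envelope channel gene with a mean of 1960 CPM in DS, at 0.483 and 0.949 CPM in L57 against 118 and 88 CPM in L26 (log2 fold change -7.16). The serine carboxypeptidase gene scpl44 was not, with a mean of 0.0837 CPM in DS, 175 CPM in L6, and 1.58 and 2.19 CPM in L57 against 250 and 239 CPM in L26 (log2 fold change -7.01, SE 0.37).

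The protein-coding genes of highest CPM changed identity. The 5 highest in L57 were RBCS1A, LHCB1.3, RBCS3B, RCA and PYK10, and the 5 highest in L26 were ICL, RR3, PYK10, HSC70-1 and AT5G60390. HSC70-1, a cytosolic chaperone gene, had 1480 and 1370 CPM in L57 against 5430 and 5150 CPM in L26 (log2 fold change -1.9, SE 0.1), and AT5G60390, a gene of translation elongation factor 1-alpha, had 2200 and 2020 CPM in L57 against 5270 and 4730 CPM in L26 (log2 fold change -1.25, SE 0.1). RR3 had 5000 and 5490 CPM in L57 against 10100 and 8210 CPM in L26 (log2 fold change -0.8, SE 0.18), but overlaps an annotated antisense RNA gene, and its value is uncertain to that extent.

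Loci that RefSeq marks as protein coding carried most of the calls. Of 22828 tested 8779 were higher and 8065 lower, whereas of 3078 other annotated loci 238 were higher and 658 lower, and of 1904 transcripts that the authors reconstructed de novo 276 were higher and 307 lower (background 33.4% and 32.5%). The other annotated class holds every annotated locus without that mark, TPT among them, so that it is not free of protein-coding genes. Most de novo transcripts were scarce, and 52 of those called reached 2 CPM, 17 higher and 35 lower. The largest falls among these were HOMER_RNA_00083047, STRINGTIE_RNA_00100762 and HOMER_RNA_00012888. HOMER_RNA_00083047 (chromosome 3, 23400128 to 23400875, minus strand) runs antisense to the heat shock factor gene AT-HSFA7B and had 0 counts in both L57 libraries against 2.37 and 2.41 CPM in L26, at least 54.1-fold lower. AT-HSFA7B itself also fell, with a log2 fold change of -5.48.

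STRINGTIE_RNA_00100762 (chromosome 4, 6897212 to 6898323, plus strand), antisense to AT4G11340, had 0.226 and 0.158 CPM in L57 against 19.9 and 20.4 CPM in L26 (log2 fold change -6.71, SE 0.29). HOMER_RNA_00012888, antisense to AT1G33360, had 0.0754 and 0.115 CPM in L57 against 6.36 and 4.68 CPM in L26 (log2 fold change -5.84, SE 0.43), while AT1G33360 had a log2 fold change of -0.16. Among the rises, STRINGTIE_RNA_00096251 had 4.93 and 5.09 CPM in L57 against 0.12 and 0.179 CPM in L26 (log2 fold change 5.05, SE 0.38) and HOMER_RNA_00114912 had 2.11 and 3.41 CPM in L57 against 0.12 and 0.114 CPM in L26 (log2 fold change 4.55, SE 0.37). HOMER_RNA_00154754, antisense to CYP94B1, rested mainly on 1 library, with 0.648 and 6.3 CPM in L57 against 0.0172 and 0.0652 CPM in L26 (log2 fold change 6.35, SE 1.52). All 6 overlap an annotated gene on the opposite strand.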

How the data were processed

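Total RNA depleted of rRNA was sequenced as stranded paired-end libraries. According to the submitters' processing notes and the methods, the authors used HOMER 4.11.1 for trimming and STAR 2.7.9a for mapping to TAIR10. A read that mapped to several places was assigned to 1 of them at random. They assembled de novo transcripts with StringTie 2.1.4 and HOMER, and deposited estimated counts per transcript, whole and unscaled. The authors also deposited TPM values, described as TMM-normalised although all libraries sum to the same total. These were used here only to compare genes within a library. The deposited coordinates of de novo transcripts were used for their positions.

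Estimated counts were summed per locus, and chloroplast transcripts were removed before library totals were computed. All 16 libraries in 8 groups were fitted with edgeR 4.0.16 (R 4.3.3) after filterByExpr (minimum count 10) and TMM scaling, with 8 residual degrees of freedom, a two-sided quasi-likelihood test and Benjamini-Hochberg adjustment over the 27810 nuclear loci tested. A call needs an adjusted p under 0.05. An exact permutation test of 2 libraries against 2 could not go below a p of 0.33. The step comparison was the contrast (L57 - L26) - (L26 - L6) in the same model. Fits were tested on simulated data.

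Gene lists held 722 symbols, of which 667 matched a locus by RefSeq symbol (601) or synonym (66). The members, lists and tests were chosen with earlier results of these data known. Genes named by rule were the 4 largest changes of at least 10 CPM in each list, the 10 largest rises and falls of at least 20 CPM with libraries that did not overlap, the 5 highest levels in either stage, the 3 largest rises and falls of at least 2 CPM among de novo transcripts, and a fixed set of 12 genes. Further list members were named after their values were seen, as relatives, extremes or contrasts. Promoters were read from RefSeq assembly TAIR10.1, and the coordinates printed are those of that assembly, except for de novo transcripts (TAIR10). Alternatives were DESeq2 (1.42.0) size factors and Wald test, no filter, the 4 libraries alone, other library totals, a replicate block and leaving out each library.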

Additional observations from a re-analysis of the deposited data

Results flagged for a closer look

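Chloroplast transcripts, which entered no comparison above, took 41.2% of all counts in L57 replicate 1 and 43.4% in L57 replicate 2, against 10.4% and 11.3% in L26. Nuclear rRNA took 2.34% of non-chloroplast counts in L57 replicate 2, above the 0.37% and 0.0157% of the L26 libraries, while L57 replicate 1 was at 0.0516%. HY5 changed differently in the 2 steps under the test of the difference itself, with a difference of -1.61 on the log2 scale.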

How the results depend on the processing

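The counts of loci stayed within 1.5 times those reported, at 8134 to 10763 loci higher and 7543 to 10194 lower. DESeq2 scaling gave the most higher (10763, against 7543 lower), and counting chloroplast transcripts in the total gave the most lower (10194, against 8449 higher). Leaving out 1 library gave 8134 to 8452 loci higher and 8193 to 8406 lower, and under each alternative at least 88.9% of the 18323 calls were also made in the same direction. DESeq2 scaling turned the sign of 116 called loci, none of them beyond a log2 fold change of 0.207, while the sign turned at 14 called loci without L57 replicate 1, 21 without L57 replicate 2, 1 without L26 replicate 1 and 2 without L26 replicate 2. Among these, called log2 fold changes reached 10.5, 9.42, 7.05 and 8.32 in size in the same order, so that some large calls rested on 1 library. Among list counts 296 values stayed within 1.5 times and in the same direction, and 1 turned, DNA replication and mitosis, in which 17 genes were lower with DESeq2 scaling. Among named genes HY5 lost its call with DESeq2 scaling (-0.23, adjusted p = 0.0645) and in the DESeq2 Wald test (adjusted p = 0.071), and PYK10 gained one (0.41, adjusted p = 0.00943 and 3.4e-05). The causes were not tested. Deviations of same-numbered libraries correlated between -0.165 and 0.133 over the pairs of groups. Such values cannot show whether replicate numbers pair the samples, and the labels do not say. The replicate block gave 9137 loci higher and 8881 lower, and the crossed pairing, chosen after seeing the data because L57 and L26 correlated at -0.165, gave 9117 and 8853. Depth limits genes near the floor of 3 counts, and 1056 loci tested had no count in the 4 libraries.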

Other observations

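Gene families were also grouped by the product name in the RefSeq annotation, after values had been seen, and hold some members of the lists above, such as PER64 and LEA4-5. Of 70 peroxidase genes tested, which act on walls and hydrogen peroxide, 53 were higher and 6 lower in L57 (background 33.4% and 32.5%), with a median log2 fold change of 4.48 against 0.0 over all loci tested and a sum of 2900 and 2930 CPM in L57 against 379 and 383 CPM in L26. Of 74 lipid transfer protein genes 48 were higher and 11 lower, with a median of 3.02. Aquaporin genes, whose products conduct water across membranes, were higher in 21 of 32 and lower in 7, and their sum was 7480 and 8320 CPM in L57 against 1330 and 1270 CPM in L26. Families linked to defence rose as well, with 43 of 57 WRKY transcription factor genes higher and 3 lower (median 1.63) and 21 of 26 receptor kinase genes of the CRK group higher and 0 lower (median 2.76). For the CRK group DESeq2 scaling likewise gave 21 higher and 0 lower.

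In the other direction 213 of 297 genes of pentatricopeptide repeat proteins, which process organelle RNA, were lower and 31 higher (background 32.5% and 33.4%, median -1.1). Their sum changed little, at 3630 and 3660 CPM in L57 against 4290 and 4240 CPM in L26. Heat shock protein genes were lower in 72 of 134 and higher in 29 (background 32.5% and 33.4%), with a sum of 6140 and 5700 CPM in L57 against 14400 and 14100 CPM in L26. Genes annotated as late embryogenesis abundant had no common direction, with 26 of 76 higher and 29 lower, near the shares over all loci (33.4% and 32.5%). DESeq2 scaling gave 27 higher and 26 lower, which turns the balance. The summed level of these genes was 566 and 582 CPM in L57 against 3080 and 2370 CPM in L26.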
